A study of Mus musculus with 12 samples.

Results

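MHC class II genes were followed in the colon and whole blood of 6 mice. They were taken by symbol, with earlier results of these data known. They are H2-Aa, H2-Ab1, H2-Eb1, Cd74, Ciita, H2-DMa, H2-DMb1, H2-Oa and H2-Ob, which are 9 of the 53801 genes in the count table. All 9 were present in both tables of normalized values, which hold 32689 genes for the colon and 25514 for the blood. The study set dextran sulfate sodium (DSS) colitis, a chemical injury model of ulcerative colitis (UC), against untreated controls. All mice were male C57BL/6 at 8 weeks of age, with no transgene or deletion. Mice 1, 2 and 4 are labelled UC, the group given 1.5% DSS for 7 days and killed on day 8. Mice 7, 8 and 9 are labelled control, the group given water without DSS until day 8. Each mouse gave 1 colon and 1 blood library of total RNA, so there were 12 libraries and 3 in each labelled group.

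MHC class II molecules are pairs of an alpha and a beta chain that carry peptides from ingested proteins to the surface of B cells, dendritic cells and macrophages, where CD4 T cells read them. In the mouse line used here H2-Aa pairs with H2-Ab1 to form I-A. The invariant chain, encoded by Cd74, fills the groove during assembly and is then cut down to a fragment that H2-M (H2-DMa with H2-DMb1) removes and replaces with peptide. H2-O (H2-Oa with H2-Ob) binds H2-M and inhibits it, and is best known from B cells. Ciita, the class II transactivator, has no DNA binding of its own and acts through the factors that occupy the X and Y boxes of class II promoters; interferon gamma induces it in cells that otherwise lack class II.

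Both the tissue labels and the disease labels were checked against markers. The label fields name opposite tissues for each library, and the field used here is the one that the markers follow: 5 of 5 epithelial and 4 of 4 smooth muscle genes were higher in all colon libraries than in all blood libraries, and 4 of 4 red cell genes were higher in all blood libraries. The disease labels do not follow the neutrophil markers. The summed normalized count of 7 neutrophil genes in blood was 450915 in mouse 1, 51898 in mouse 2 and 47190 in mouse 4, all labelled UC, against 152454 in mouse 7, 39148 in mouse 8 and 352142 in mouse 9, all labelled control. In the colon that sum was 33910, 7446 and 16494.5 in mice 1, 2 and 4, against 26119, 17736 and 64954 in mice 7, 8 and 9. Ly6g alone gave nearly all of it in mice 2, 4 and 8, at 7350, 16355 and 17455. The colon sum therefore understates how far the mice stood apart in the rest of the 7 genes. S100a8 had 5370, 33.1 and 22.3 in mice 1, 2 and 4, against 1888, 75.6 and 13337 in mice 7, 8 and 9. For each of the 7 genes, colon values of mice 1, 7 and 9 were above those of mice 2, 4 and 8. The authors' normalized values list mice 1, 7 and 9 before mice 2, 4 and 8 in both tissues. Whether each label gives the treatment its mouse received could not be settled here, so the sign and meaning of every labelled UC against labelled control value are uncertain. Groups were kept as labelled, and values are given for each mouse. A colon library held between 69181049 and 103662306 counts, and a blood library between 80867247 and 142536804.

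Of the 9 genes, 7 lie in the class II region of chromosome 17. On GRCm38 with the GENCODE vM21 annotation, the region ran from H2-Oa (chr17:34092340-34095234, plus strand) through H2-DMa (chr17:34119541-34139101, plus), H2-DMb1 (chr17:34153072-34160230, plus), H2-Ob (chr17:34238903-34254414, plus), H2-Ab1 (chr17:34257689-34269419, plus) and H2-Aa (chr17:34282744-34287823, minus) to H2-Eb1 (chr17:34305867-34316674, plus). Ciita is at chr16:10480059-10528418 and Cd74 at chr18:60803848-60812652, both on the plus strand. All 9 are annotated as protein coding. H2-Ea-ps, the gene of the alpha chain that would pair with H2-Eb1, is annotated as a polymorphic pseudogene at chr17:34341959-34344645 and had 0 counts in 12 of 12 libraries. H2-Eb1 was nevertheless read in every library, as the values below show.

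The promoter letters are shown as a feature outside the measurements that some of these genes share. RefSeq promoters (GRCm38.p6, 250 bases before to 50 bases after the gene start) were searched for 6 of the 9 genes. H2-Ab1 and Ciita had no entry, and Cd74 was left out of the search. The Y box core GATTGG, searched on both strands, was in a promoter of 6 of these 6 genes and in 16.1% of 32851 promoters. The core of the X1 box, searched likewise, was in 3 of the 6, H2-Eb1, H2-DMb1 and H2-Oa, and in 0.968% of all promoters; in H2-Oa it lay 141 bases before the start, away from the Y core at 44 bases. A shorter form, GNAAC followed after 15 to 40 bases by GATTGG, was added after the promoters had been read: it was in 5 of the 6 genes and in 1.45% of all promoters. The stretch around it is printed for 4 of them from 5′ to 3′ on the strand of the gene, with GNAAC and GATTGG in capitals.

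H2-Aa: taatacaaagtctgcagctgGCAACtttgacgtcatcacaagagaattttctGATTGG
H2-Eb1: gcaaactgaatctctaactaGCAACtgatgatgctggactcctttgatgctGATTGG
H2-Oa: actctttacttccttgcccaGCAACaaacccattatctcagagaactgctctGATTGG
H2-Ob: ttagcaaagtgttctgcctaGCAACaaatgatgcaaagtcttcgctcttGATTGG

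These stretches lie at chr17:34287867-34287924 (minus strand) for H2-Aa, chr17:34305756-34305812 for H2-Eb1, chr17:34092283-34092340 for H2-Oa and chr17:34238798-34238852 for H2-Ob, before the first base of the annotated gene or, in H2-Oa, up to it. Between the capitals stood 27 bases in H2-Aa and H2-Oa, 26 in H2-Eb1 and 24 in H2-Ob, and the Y core began 44 to 60 bases before the start. H2-DMb1, the gene not printed, also had 27 bases between. H2-DMa has 2 promoter entries, and neither held the paired letters. A match describes letters and is not a measured binding site. These 5 genes with like letters in their promoters differed widely in level and in their tissue difference, as follows.

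In the colon, all class II genes varied severalfold between mice, and the same libraries were high for all of them. Normalized counts below are the counts divided by the authors' factor for the library, and are compared only within a tissue. H2-Aa had 7223 normalized counts in mouse 1, 3705 in mouse 2 and 7871 in mouse 4, against 16966 in mouse 7, 3386 in mouse 8 and 12143 in mouse 9. H2-Ab1 had 5046, 2376 and 4382 in mice 1, 2 and 4, against 13051, 2409 and 7741 in mice 7, 8 and 9. H2-Eb1, the beta chain without an alpha partner, had 3224, 1854 and 3106 in mice 1, 2 and 4, against 8296, 1722 and 5779 in mice 7, 8 and 9. Mice 7 and 9 were the highest and second highest for all 9 genes, mice 2 and 8 were the lowest pair for the 3 chains, and the labelled groups overlapped because mouse 8 was low.

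Cd74 had 12135, 5581 and 10226 in mice 1, 2 and 4, against 31921, 4384 and 16760 in mice 7, 8 and 9. Ciita had 785, 490 and 808 in mice 1, 2 and 4, against 2739, 282 and 2086 in mice 7, 8 and 9. Mouse 7 was highest and mouse 8 lowest for both, and the highest value was 7.28 times the lowest for Cd74 and 9.70 times for Ciita.

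The peptide editor moved with the chains and its inhibitor did not follow in mouse 1. H2-DMa had 641, 342 and 492 in mice 1, 2 and 4, against 1440, 332 and 846 in mice 7, 8 and 9, and H2-DMb1 had 733, 344 and 590 against 1625, 318 and 1103. Mouse 1 was the third for both, as it did for H2-Ab1, H2-Eb1 and Cd74. H2-Oa had 20.8, 65.3 and 85.0 in mice 1, 2 and 4, against 207, 30.3 and 163 in mice 7, 8 and 9. H2-Ob had 52.1, 225 and 398 in mice 1, 2 and 4, against 575, 35.3 and 494 in mice 7, 8 and 9. Mouse 1 was thus the lowest of the 6 for H2-Oa and the second lowest for H2-Ob.

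In the blood the class II genes were more even between mice, and the order of mice was another one. H2-Aa had 9481, 13531 and 17243 in mice 1, 2 and 4, against 11865, 11567 and 9367 in mice 7, 8 and 9. H2-Ab1 had 5662, 6052 and 9778 in mice 1, 2 and 4, against 7207, 7122 and 4157 in mice 7, 8 and 9. H2-Eb1 had 5242, 7646 and 10014 in mice 1, 2 and 4, against 7032, 6759 and 4682 in mice 7, 8 and 9. Mouse 4 was the highest and mouse 9 the lowest for all 3 chains.

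Cd74 had 9298, 5163 and 9186 in the blood of mice 1, 2 and 4, against 7581, 4552 and 4165 in mice 7, 8 and 9. Mouse 1 was highest here, and second lowest for the 3 chains. Ciita had 3318, 3087 and 3463 in mice 1, 2 and 4, against 3402, 2977 and 2723 in mice 7, 8 and 9. Ciita was the most even class II gene in blood, with a coefficient of variation of 9.01% against 82.0% in the colon. The coefficient of variation (SD over mean, n = 6) of every member was larger in colon, at 61.0% or more, than in blood, where Cd74 had the largest.

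H2-DMa had 1388, 1481 and 2494 in the blood of mice 1, 2 and 4, against 1987, 1601 and 958 in mice 7, 8 and 9, and H2-DMb1 had 1026, 868 and 1356 against 1459, 1157 and 883. H2-Oa had 366, 676 and 730 in mice 1, 2 and 4, against 485, 437 and 355 in mice 7, 8 and 9. H2-Ob had 2440, 4832 and 6971 in mice 1, 2 and 4, against 4791, 6233 and 4145 in mice 7, 8 and 9. Mouse 4 was highest for H2-Oa and H2-Ob, and the labelled groups overlapped for all 4 genes.

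**Figure D1:**
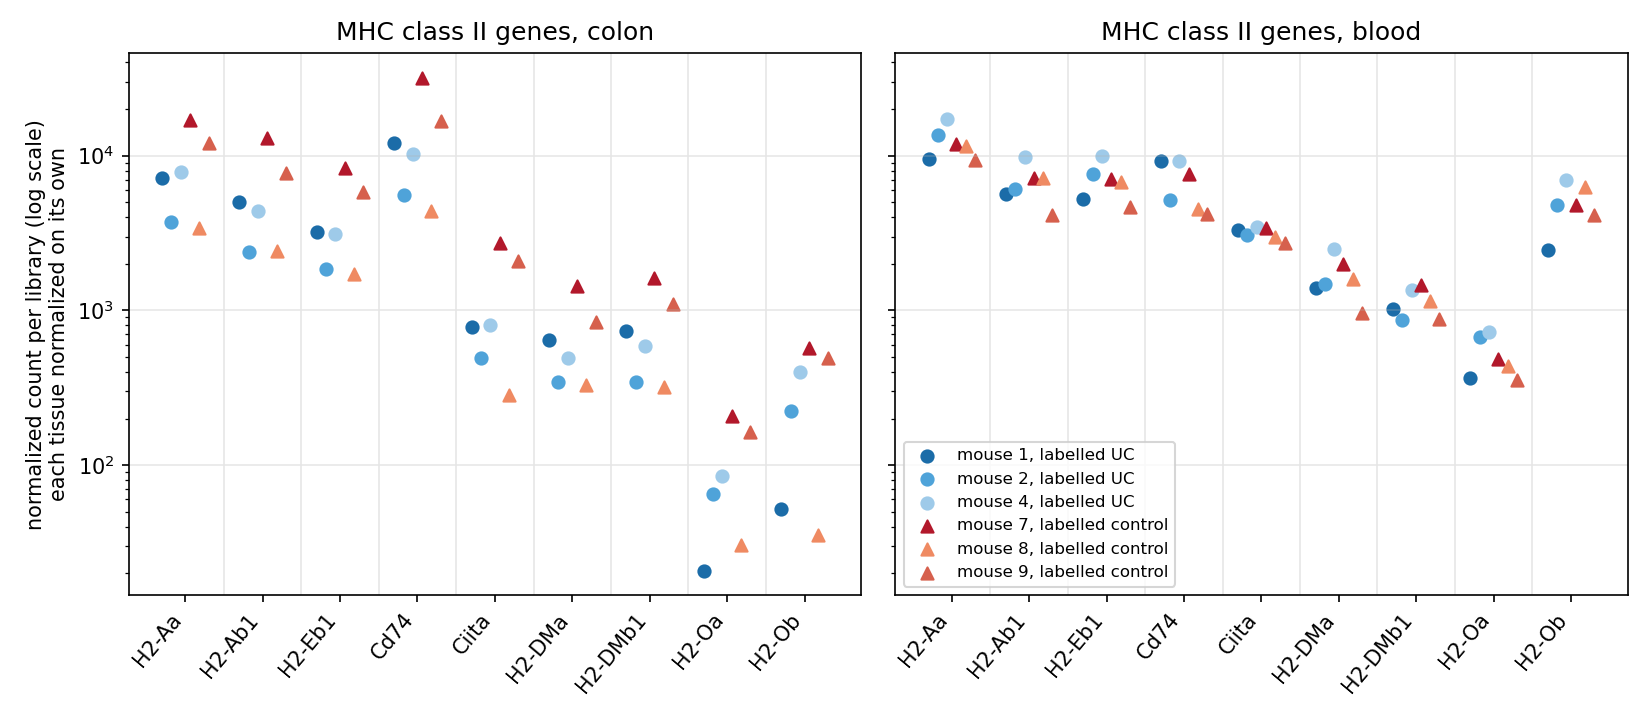
Normalized counts of the 9 genes in each library, colon on the left and blood on the right, on a log axis; circles are mice labelled UC, triangles mice labelled control, and each tissue was normalized on its own. In the colon mice 7 and 9 were the highest pair for every gene and the highest value was 4.34 to 16.3 times the lowest, against 1.27 to 2.86 times in blood.

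Labelled UC against labelled control called none of the 9 genes in the colon. A gene was called at an adjusted p of at most 0.05 with an absolute log2 fold change (log2FC) over 1. All 9 log2FC were negative, that is lower in the libraries labelled UC, from -0.72 for H2-Ob (SE 1.05) to -1.30 for Ciita (SE 0.74), with a median of -0.94 beside -0.01 over all genes. Adjusted p was 1.00 for each (edgeR quasi-likelihood test, n = 3 per group, Benjamini-Hochberg over 22238 genes). No member had an unadjusted p under 0.05, beside 313 of 22238 genes, and DESeq2 and limma-voom also called 0 of 9. The background was equally empty: 1 gene was called, 0.0045% of those tested. The labelled groups overlapped in 9 of 9 genes, while over all genes 5.41% did not overlap. The intervals were wide: for H2-Ab1 the 95% interval of the log2FC ran from -2.16 to 0.18.

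How far the labelled groups stood apart depended on mice 7 and 8. Without mouse 8 the median log2FC of the 9 genes was -1.37 and 8 of 9 had an unadjusted p under 0.05, beside 1942 of 23122 genes, with 0 members called. Without mouse 7 the median was -0.35 and 0 of 9 had such a p. Monocyte and macrophage markers moved alongside: their summed normalized count (8 genes) was 35846, 14505 and 20174 in the colon of mice 1, 2 and 4, against 45215, 13897 and 51672 in mice 7, 8 and 9, and 0 of 8 were called by label. Their part in the class II values was not tested. In bulk tissue, fewer cells of a type cannot be told apart from less RNA per cell.

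In the blood, labelled UC against labelled control also called 0 of 9 genes. The log2FC was positive for 7 and negative for 2, from -0.11 for H2-DMb1 (SE 0.27) to 0.53 for Cd74 (SE 0.34), with a median of 0.23 beside 0.04 over all genes. Adjusted p was 1.00 for each (edgeR, n = 3 per group, 16759 genes), 0 members and 241 of all genes had an unadjusted p under 0.05, and DESeq2 and limma-voom called 0 of 9. Of all genes 0% were called, and 6.5% had labelled groups that did not overlap, against 0 of 9 members.

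The difference between the tissues in the effect of the label was tested directly, since the log2FC were all negative in the colon and mostly positive in the blood. It called 0 of 9 genes, beside 0.0043% of all genes (1 of 23258). The difference (colon minus blood) ran from -0.65 for H2-Ob (SE 1.18) to -1.72 for H2-Oa (SE 0.88), with a median of -1.22 beside -0.06 over all genes, and adjusted p was 1.00 for each (edgeR). No member had an unadjusted p under 0.05, beside 793 of 23258 genes. Without mouse 8 there were 7 members with such a p, none of them called, beside 1261 of 24064 genes. DESeq2 and limma-voom called 0 of 9.

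The colon and blood of the same mice differed in how most class II genes stood to each other. For each ratio below except H2-Aa over H2-Ab1, the ranges over the mice did not overlap between the tissues. Ratios of counts within a library were used, since no scaling factor enters them. For each of 7 ratios, the log2 ratio in blood was subtracted from that in colon within each mouse, with a two-sided exact permutation test (sign flips over 6 mice, smallest possible p 0.03125) and adjustment over the 7 ratios. The ratios were chosen with earlier results of these data known, which limits what their p-values can say.

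The inhibitor to editor ratio was lower in the colon of every mouse. H2-Oa plus H2-Ob over H2-DMa plus H2-DMb1 was 0.0537, 0.423 and 0.446 in the colon of mice 1, 2 and 4 and 0.256, 0.103 and 0.337 in mice 7, 8 and 9. In the blood it was 1.16, 2.34 and 2.0 in mice 1, 2 and 4 and 1.53, 2.42 and 2.44 in mice 7, 8 and 9. The highest colon value was below the lowest blood value, and mice 1 and 8 had the lowest colon values. The ratio was 9.05-fold lower in colon (log2 difference -3.18 ± 1.05 SD, n = 6 mice, lower in 6 of 6, exact permutation p = 0.03125, adjusted p = 0.0365). The size depended on what was counted as H2-M: with H2-DMb2, its second beta chain and a close copy of H2-DMb1, in the sum, the ratio was 4.98-fold lower (-2.32 ± 1.06 SD), and over the beta chains H2-DMb1 and H2-DMb2 alone, without H2-DMa, whose annotated span overlaps Brd2, it was 4.18-fold lower (-2.06 ± 1.01 SD), each lower in 6 of 6 mice. Both sums were chosen after seeing the data.

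Within H2-O the balance of chains shifted. The H2-Oa to H2-Ob count ratio was 0.411, 0.293 and 0.215 in the colon of mice 1, 2 and 4 and 0.362, 0.862 and 0.331 in mice 7, 8 and 9, against 0.0702 to 0.151 in blood. It was higher in colon by 1.83 ± 0.96 on the log2 scale (SD, n = 6, 6 of 6 mice, exact permutation p = 0.03125, adjusted p = 0.0365). H2-Ob thus differed more between tissues than its partner, and the 2 tissues did not overlap. The colon ratios of mice 1 and 8 rest on few counts: 22 and 24 for H2-Oa, and 55 and 28 for H2-Ob. H2-Oa also overlaps BC051537, a gene on the opposite strand with 0 to 34 counts in a library, and the quantification set no strand.

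Cd74 stood higher against the chains in the colon, and its transactivator stood lower. The Cd74 to H2-Ab1 ratio was 2.40, 2.35 and 2.33 in the colon of mice 1, 2 and 4 and 2.45, 1.82 and 2.16 in mice 7, 8 and 9, against 1.64, 0.853 and 0.939 in the blood of mice 1, 2 and 4 and 1.05, 0.639 and 1.00 in mice 7, 8 and 9. It was 2.29-fold higher in colon (log2 1.19 ± 0.35 SD, n = 6, 6 of 6 mice, exact permutation p = 0.03125, adjusted p = 0.0365). The colon values kept close together although the Cd74 level itself varied 7.28-fold. The Ciita to Cd74 ratio was 0.0647 to 0.124 in colon and 0.357 to 0.654 in blood, 6.06-fold lower in colon (log2 -2.60 ± 0.40 SD, n = 6, 6 of 6 mice, exact permutation p = 0.03125, adjusted p = 0.0365). Ciita overlaps Dexi, a gene on the opposite strand with 69 to 796 counts in a library.

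The remaining ratios shifted less. H2-Eb1 over H2-Ab1 was 0.636 to 0.781 in colon and 0.926 to 1.26 in blood (log2 difference -0.56 ± 0.10 SD, n = 6, 6 of 6 mice, exact permutation p = 0.03125, adjusted p = 0.0365). H2-DMa over H2-DMb1 had a difference of -0.68 ± 0.26 (SD, n = 6, 6 of 6 mice, same exact p), with ranges of 0.767 to 1.04 and 1.09 to 1.84. Here H2-DMa is uncertain, since its annotated span overlaps Brd2 on the opposite strand and the quantification set no strand, and H2-DMb1 has a close copy, H2-DMb2. The pair that forms I-A differed least: H2-Aa over H2-Ab1 was 1.50 in colon and 1.85 in blood (geometric means), a difference of -0.30 ± 0.21 (SD, n = 6, lower in colon in 5 of 6 mice, exact permutation p = 0.0625, adjusted p = 0.0625), which did not pass.

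**Figure D2:**
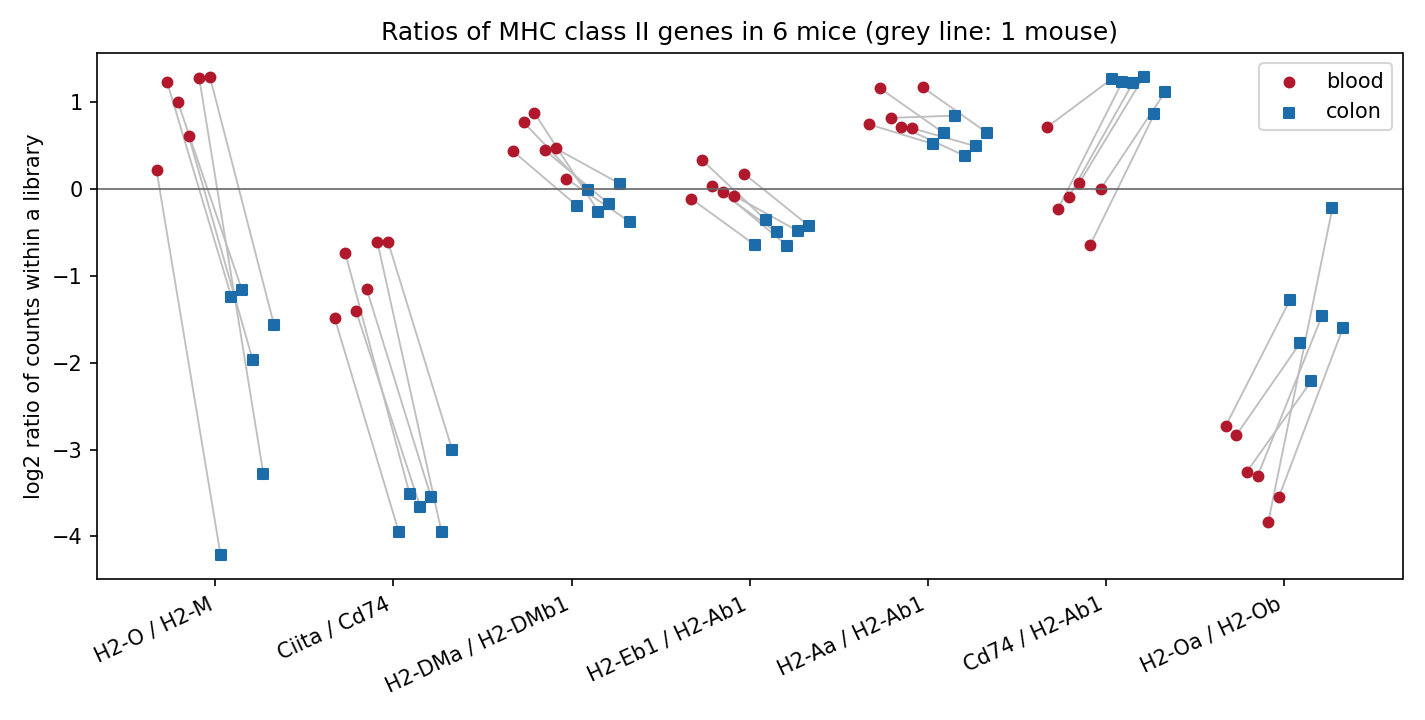
Log2 ratios of counts within each library for 7 pairs of class II genes, ordered by the difference; red circles are blood, blue squares colon, and a grey line joins the tissues of 1 mouse. Colon minus blood was -3.18 on average for H2-O over H2-M and -2.60 for Ciita over Cd74, while Cd74 over H2-Ab1 and H2-Oa over H2-Ob were higher in colon in 6 of 6 mice.

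Per kilobase of merged exon, Cd74 led in both tissues but took a larger share in the colon. The merged length joins all annotated exons of a gene, so the orders and shares below depend on the annotation. Its share of the summed normalized counts per kilobase of the 9 genes was 46.1% to 54.7% in the colon (median 50.1%) and 18.2% to 36.9% in the blood (median 23.3%). In the colon the order of median level per kilobase was Cd74, H2-Aa, H2-Ab1, H2-Eb1, H2-DMb1, H2-DMa, Ciita, H2-Ob and H2-Oa. H2-Aa was above H2-Ab1 in 3 of 6 libraries, so this pair had no settled order. H2-Oa was above H2-Ob in 5 of 6 libraries, against the order of their medians, and the other neighbours kept their order in at least 5 of 6. In the blood the order was Cd74, H2-Eb1, H2-Aa, H2-Ab1, H2-Ob, H2-DMb1, H2-DMa, Ciita and H2-Oa. Cd74 was above H2-Eb1 and Ciita above H2-Oa in only 4 of 6 blood libraries. H2-Ob held 3.02% to 7.75% of the sum in blood, with a median above those of both H2-M chains, and 0.07% to 0.63% in colon, below both.

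Set against each other as levels, 8 of the 9 genes were lower in the colon than in the blood and Cd74 was not called. Of all genes 58.5% were called between the tissues, 37.7% higher in colon and 20.8% higher in blood, so a call by itself is common here. Library composition enters this comparison strongly: the median log2FC of all 23258 genes was 0.46 with TMM scaling. H2-Ob had a log2FC of -5.80 (SE 0.72, adjusted p = 3.2e-05) and H2-Oa of -4.22 (SE 0.50, adjusted p = 2.0e-05; edgeR, n = 6 libraries per tissue). Ciita had -3.25 (SE 0.44), H2-DMa -3.04 (SE 0.37), H2-Eb1 -2.56 (SE 0.36), H2-DMb1 -2.29 (SE 0.37), H2-Aa -2.26 (SE 0.36) and H2-Ab1 -1.97 (SE 0.38, adjusted p = 0.00077). Cd74 had -0.74 (SE 0.42, adjusted p = 0.133; edgeR).

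The direction of the smaller differences depended on the scaling. With library size over all genes, where the genes of the authors' table made up 32.1% to 60.9% of a blood library and 81.3% to 91.4% of a colon library, the median of all genes rose to 2.57, and 76.9% of all genes were called higher in colon and 7.55% higher in blood. Only H2-Ob (-3.65), H2-Oa (-2.10) and Ciita (-1.11) then remained called lower in colon, H2-Ab1 turned to 0.17 without a call, and Cd74 turned to 1.39 and was called higher in colon (edgeR adjusted p = 0.0091). With library size over the genes of both normalized tables, 7 were called lower in colon, H2-Ab1 was at -0.90 and Cd74 at 0.35, neither called. The order of the 9 genes was the same under all 3 scalings, with H2-Ob lowest and Cd74 highest. A change of scaling moves all genes of a library alike, so this order was largely set in advance.

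**Figure D3:**
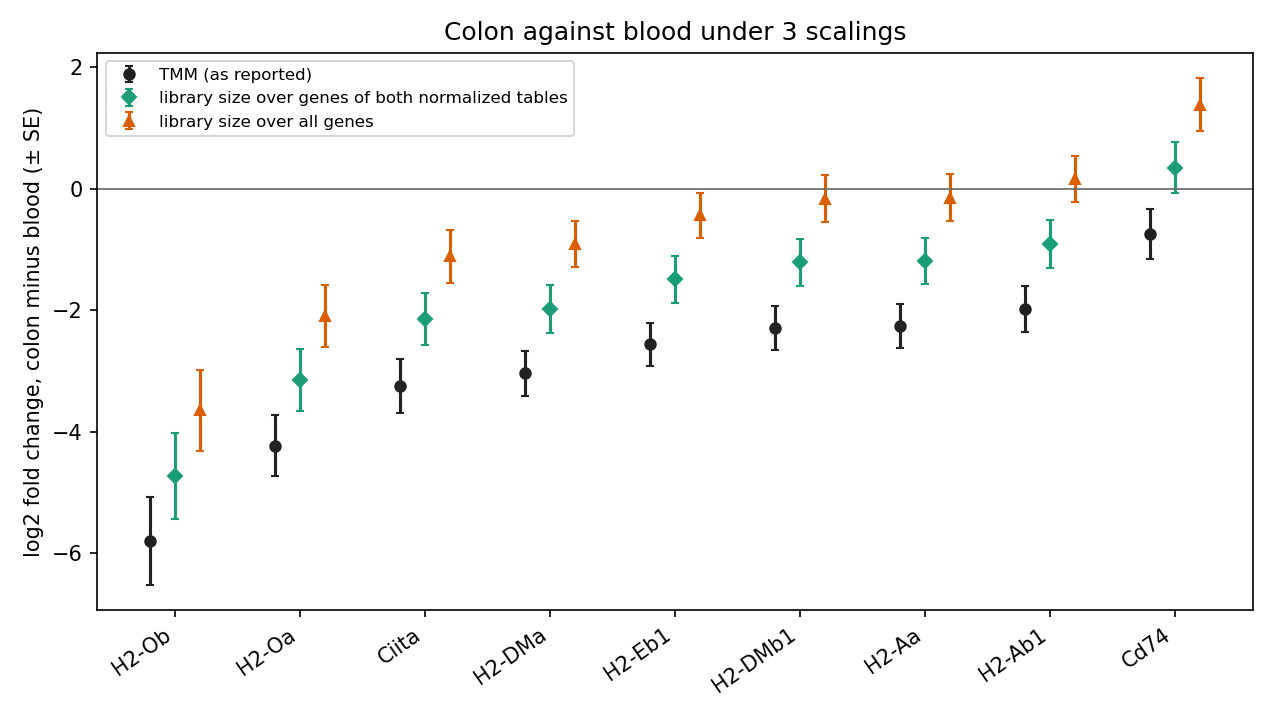
Log2 fold change of each gene, colon minus blood, with its SE, under TMM scaling (black circles), library size over the genes of both normalized tables (green diamonds) and library size over all genes (orange triangles). H2-Ob ran from -5.80 to -3.65 and stayed below 0, whereas Cd74 ran from -0.74 to 1.39 and H2-Ab1 from -1.97 to 0.17, so that their directions changed with the scaling.

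B cell markers moved with H2-O over the colon libraries, and less closely in the blood. In the colon the summed normalized count of 8 B cell genes was 258, 1496 and 2552 in mice 1, 2 and 4, against 3720, 372 and 4093 in mice 7, 8 and 9, and that of H2-Oa plus H2-Ob was 72.9, 290 and 483 against 783, 65.5 and 657. Mice 1 and 8 were lowest in both, mice 7 and 9 highest in both. In the blood mouse 4 was highest and mouse 1 lowest in both. Mouse 8 was there above mice 2 and 7 for H2-O, at 6670 against 5507 and 5276. It was below them for the B cell sum, at 26370 against 32456 and 32100. All 8 B cell genes were called lower in colon than in blood (edgeR, TMM), beside 20.8% of all genes. With library size over all genes 7 of 8 were called lower, beside 7.55% of all genes. The median log2FC of the 8 with TMM was -5.58, beside -5.80 for H2-Ob and -4.22 for H2-Oa.

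Within a library, H2-O per B cell marker count was alike in the tissues and the chains per B cell marker count were not. H2-Oa plus H2-Ob over the B cell sum was 0.160 to 0.283 in the colon (median 0.191) and 0.128 to 0.253 in the blood (median 0.183), so the ranges overlapped. H2-Aa plus H2-Ab1 plus H2-Eb1 over the B cell sum was 60.1, 5.30 and 6.02 in the colon of mice 1, 2 and 4 and 10.3, 20.2 and 6.27 in mice 7, 8 and 9, against 0.80 to 0.965 in the blood. Over the monocyte and macrophage sum the same chains were at 0.432 to 0.847 in colon and 0.237 to 0.392 in blood. The lysozyme gene Lyz2 alone made up most of that sum in every library. In mouse 1 it gave 21030 of 35846 in colon and 62691 of 74872 in blood, so this ratio largely reads Lyz2. These marker ratios were chosen after the values had been seen and were not tested, nor was the part of any cell type in them.

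**Figure D4:**
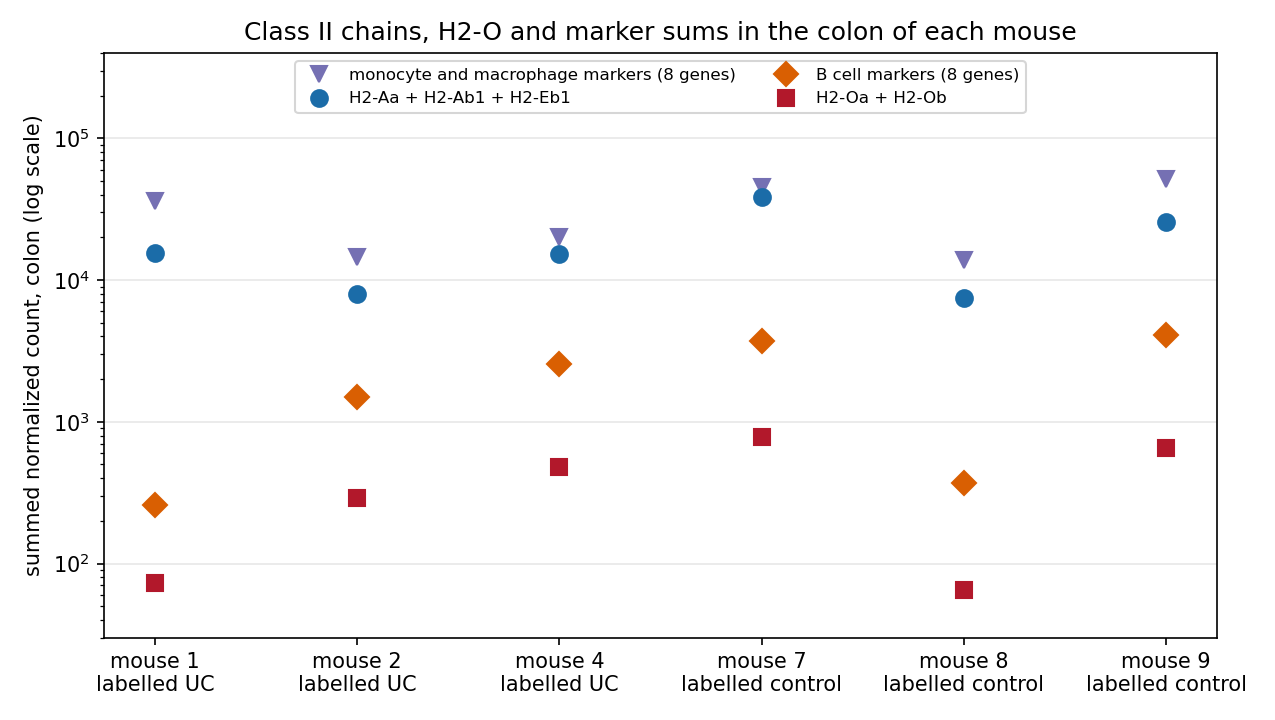
Summed normalized counts in the colon of each mouse, on a log axis: 8 monocyte and macrophage markers (purple), 3 class II chains (blue), 8 B cell markers (orange) and H2-Oa plus H2-Ob (red). In mouse 1 the chains were at 15493, with 2 mice above it, while the B cell sum was lowest at 258 and H2-O second lowest at 72.9.

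Both other class II genes of the locus that had counts were called lower in colon, beside 20.8% of all genes. H2-DMb2, the second H2-M beta chain, had 3663 normalized counts on average in blood (SD 1305, n = 6) and a log2FC of -5.05 (SE 0.47), and H2-Eb2 had 677 (SD 251) and -4.58 (SE 0.51) (edgeR), and both kept that call with library size over all genes. H2-DMb1 and H2-DMb2 are close copies, and how reads were shared between them is uncertain.

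Of the 7 promoter factors, subunits of RFX and NF-Y with Creb1, 2 were called lower in colon with TMM, beside 20.8% of all genes. These were Creb1 at -1.31 (SE 0.17) and Rfxank, an RFX subunit, at -1.11 (SE 0.23). The other 5, among them the NF-Y subunits Nfya, Nfyb and Nfyc, lay between -0.72 and 0.46. With library size over all genes 6 of the 7 were called higher in colon, beside 76.9% of all genes. By label 0 of 7 were called in either tissue (edgeR), with 0 at an unadjusted p under 0.05.

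Of 8 genes of peptide loading and invariant chain cleavage, 3 were called higher in colon, near the 37.7% of all genes, and 5 were not called. Scaled by library size over all genes, 8 of 8 were called higher, beside 76.9% of all genes. Ctsl, a protease that trims the invariant chain in epithelial cells of the thymus, was at 3.58 (SE 0.43) and is named after its value was seen. Lgmn, an asparagine-specific protease of endosomes, was at 2.36 (SE 0.50), and Sppl2a, the protease that clears the membrane stub of the invariant chain, at 1.85 (SE 0.38). Ctss, a protease that trims the invariant chain in B cells and dendritic cells, was at 0.25 (SE 0.19). Ctsb was at -0.29 (SE 0.39) and Ctsd at -0.30 (SE 0.24), and none of these 3 was called. Both genes of surface turnover were called lower in colon, beside 20.8% of all genes. March1, the ligase that sends class II for degradation, was at -4.78 (SE 0.48) and Cd83, which opposes it, at -1.78 (SE 0.26). With library size over all genes 1 of the 2 was called lower, beside 7.55% of all genes.

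On the interferon gamma axis, 4 of 10 genes were called higher in colon, beside 37.7% of all genes, 4 lower, beside 20.8%, and 2 not. Under library size over all genes 7 were called higher and 0 lower, beside 76.9% and 7.55%. The receptor chains were higher in colon, Ifngr1 at 1.08 (SE 0.23) and Ifngr2 at 1.50 (SE 0.20). The kinase Jak1 was lower, at -1.92 (SE 0.17). Irf1, a further activator of Ciita, was at 0.27 (SE 0.31) and not called. By label 0 of 9 tested genes of this axis were called in either tissue (edgeR), with 0 at an unadjusted p under 0.05.

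Of the 6 CD4 T cell genes, 5 were called lower in colon, beside 20.8% of all genes. Among them were Cd28, a costimulatory receptor, at -5.95 (SE 0.35), and Cd4, the coreceptor that binds class II, at -3.44 (SE 0.38). Cd3d and Cd3e, chains of the T cell receptor complex, were at -5.88 (SE 0.55) and -4.98 (SE 0.50). Lag3, another receptor for class II, was at 1.52 (SE 0.79) and not called. All 3 costimulatory ligands and receptors of antigen presenting cells were called lower: Cd86 at -1.73 (SE 0.34), Cd80 at -2.83 (SE 0.68) and Cd40 at -3.47 (SE 0.46). Scaled by library size over all genes, 5 of 6 and 1 of 3 remained lower, beside 7.55% of all genes. Of 7 dendritic cell markers 3 were called lower in colon, beside 20.8% of all genes, and 4 were not called. With library size over all genes 3 were called higher and 0 lower, beside 76.9% and 7.55% of all genes. Of 8 monocyte and macrophage markers 2 were called higher in colon, beside 37.7% of all genes. These were C1qa at 4.75 (SE 0.94) and C1qb at 6.09 (SE 1.05), complement genes of tissue macrophages. Another 5 were called lower, among them the lysozyme gene Lyz2 at -3.86 (SE 0.38), Adgre1 at -2.13 (SE 0.29) and the growth factor receptor gene Csf1r at -1.65 (SE 0.33), and 1 was not called. Under library size over all genes 3 were called higher and 2 lower, beside 76.9% and 7.55% of all genes.

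The genes whose pattern over mice was most like the class II chains differed between the tissues. In the colon, over 6 libraries, Apol7c had a Pearson r of 0.996 with the mean standardised log2 level of H2-Aa, H2-Ab1, H2-Eb1 and Cd74, followed by Camkk1 (0.994), Otulinl (0.989), Glrx5 (0.988) and Pou2f2 (0.987) of 15834 genes. Apol7c had 271, 128 and 290 normalized counts in mice 1, 2 and 4, against 754, 132 and 489 in mice 7, 8 and 9. In the blood Rpl15 led (0.996), then St6gal1 (0.987), Ccl9 (0.985), Gimap1 (0.984) and Commd9 (0.981) of 11096 genes. With 6 points and this many genes the highest r are picked from a long list, and they are given as a description.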

How the data were processed

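Total RNA of colon and whole blood from 6 mice was sequenced after removal of ribosomal RNA (colon) or of ribosomal and globin RNA (blood). The authors mapped the reads to GRCm38 with STAR and quantified genes with StringTie (version 1.3.4c) on Ensembl release 92. The deposited count table holds whole-number gene counts derived from transcript coverage, with no strand set, so counts of overlapping genes and close copies may be divided between them. The deposited normalized tables, 1 for each tissue, hold a signal that is the count over a size factor of the library, set by the authors (0.791 to 1.21 in colon, 0.664 to 1.31 in blood); they held 81.3% to 91.4% of the counts in colon and 32.1% to 60.9% in blood.

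Groups came from the labels. The members, lists and ratios were chosen with earlier results of these data known. Counts were fitted in R 4.3.3 with edgeR 4.0.16 (TMM, filterByExpr, quasi-likelihood test, Benjamini-Hochberg over all genes tested), by label within each tissue, and over all 12 libraries for colon against blood and for the difference of the label effect. Ratios used counts plus 1 and were compared by an exact sign-flip permutation test in Python. SE is the log2FC over the square root of F, and 95% intervals take it as normal. Alternatives were DESeq2 1.42.0, limma-voom (limma 3.58.1), other scalings and filters, each mouse left out, and the mouse as a block; the scaling by library size over the genes of the normalized tables was added after seeing the data. The fits were tested on simulated data. All 9 members are named; of each other list every gene was counted and up to 5 named, those with the highest mean normalized count in colon or in blood, except Ctsl. 1 listed gene is not reported here by itself. Genes most alike had a mean normalized count of at least 100.

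The mouse numbers pair the tissues because, by the study's methods, colon and blood came from the same animals; deviations from the group means of the same mouse correlated between tissues with r of 0.019 to 0.245 over 15530 genes. The labels do not say that libraries of a group came from separate cages or days. Motifs were searched in RefSeq promoters of GRCm38.p6.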

Additional observations from a re-analysis of the deposited data

How the results depend on the processing

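The counts of called members by label (0 in each tissue) and of the difference of the label effect between tissues (0) stayed at 0 under every alternative run, including leaving out each mouse (0 to 0) and, for the difference, the replicate block (0). For colon against blood 8 members were called, and 8 to 8 without each mouse in turn, 8 with the replicate block, DESeq2, limma-voom, RLE or another filter, 7 with library size over the genes of both normalized tables and 4 with library size over all genes. With library size over all genes Cd74 turned to 1.39 and H2-Ab1 to 0.17, and with library size over the genes of both tables Cd74 turned to 0.35; the median of all genes moved from 0.46 to 2.57 and 1.24 under these scalings. Pairing by mouse changed no call: with the replicate block Cd74 was at -0.95 (adjusted p = 0.038), under the fold threshold. In blood by label, where no member was called, the sign of the log2FC turned for Ciita with library size over all genes (-0.18). It also turned on leaving out 1 mouse for H2-DMb1 (-0.30 to 0.085; 0.027 without mouse 2), H2-DMa (-0.083 to 0.48; -0.0065 without mouse 9), H2-Ob (-0.48 to 0.22; 0.10 without mouse 8) and H2-Ab1 (-0.078 to 0.36; -0.0030 without mouse 9). The 7 ratios kept their direction in 51 of 51 alternatives. Where 6 of 6 mice shared a direction, leaving out 1 mouse could not turn it. H2-O over H2-M was at -2.32 with H2-DMb2 counted in H2-M and at -2.06 over the H2-M beta chains alone. Without 1 mouse, H2-O over H2-M ran from -3.38 to -2.90, Ciita over Cd74 from -2.67 to -2.45, H2-Oa over H2-Ob from 1.47 to 1.98, Cd74 over H2-Ab1 from 1.13 to 1.32, H2-DMa over H2-DMb1 from -0.73 to -0.59, H2-Eb1 over H2-Ab1 from -0.59 to -0.54 and H2-Aa over H2-Ab1 from -0.36 to -0.25, with no test since 5 pairs cannot go below 0.0625. The cause of these changes was not tested. The biological coefficient of variation was 0.503 by label in colon and 0.417 in blood, with 3 libraries per label.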
